A study of Homo sapiens with 18 samples.

Results

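The 9 genes described here encode the SMG and UPF factors of nonsense-mediated mRNA decay: SMG1, SMG5, SMG6, SMG8, SMG9, UPF1, UPF2, UPF3A and UPF3B. They were taken by name, through the Ensembl identifier of each table entry, and are 9 of 20263 genes in the count table. All 9 passed the filter on low counts, which left 14234 genes to be tested. The table holds 18 bulk RNA-seq libraries in 6 groups of 3. Each group combines 1 of 3 cell line labels with 1 of 2 treatments. The labels are MHCC-97H, a liver carcinoma line, MDA-MB-231, a breast carcinoma line, and HCT-116, a colon carcinoma line, all given as wild type and all grown in high-glucose DMEM with 10% serum. The treated groups received 20 nM H3B-8800, a small-molecule modulator of the splicing factor SF3B1, for 24 h, and the control groups received the solvent DMSO for the same time. The series asks how this compound affects exon skipping and glycolysis, so each treated group is set against the DMSO group of its own label.

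Nonsense-mediated decay removes mRNAs on which a ribosome stops too early, often upstream of an exon junction complex left behind by splicing. UPF1, an RNA helicase, is held near the stopped ribosome and meets UPF2 and UPF3B, which link it to the exon junction complex. The kinase SMG1, restrained by SMG8 and SMG9, phosphorylates UPF1. Phosphorylated UPF1 then recruits the endonuclease SMG6 and, through SMG5, the deadenylation and decapping machinery. Transcripts of several of these factors are themselves targets of the pathway, and altered splicing can create new targets.

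Libraries held between 28232315 and 41488278 counts. Libraries with the MDA-MB-231 label and with the HCT-116 label had nearly the same profile: over 12542 genes, log2 levels correlated at 0.979 to 0.988 between libraries of these 2 labels, against 0.491 to 0.528 between either label and MHCC-97H. Levels are given as CPM (read counts scaled to the TMM library size), except those of the markers in this paragraph, which were scaled to the library total. The 7 intestinal epithelium markers looked up summed to 1596 to 1695 CPM in the 12 libraries of these labels, with CDX1 at 0 counts in all of them. They summed to 0 to 0.17 CPM under the MHCC-97H label. The 6 breast epithelium markers summed to 59.0 to 65.1 CPM under the MDA-MB-231 label, to 58.6 to 65.2 CPM under HCT-116 and to 26.7 to 32.7 CPM under MHCC-97H. For 6 mesenchymal markers the sums were 5898 to 6524, 5981 to 6606 and 1438 to 1551 CPM, in the same order of labels. Among these, TWIST1 had 0 counts under MDA-MB-231 and HCT-116. Of 8 liver markers, ALB, APOA1, APOA2, AFP, TTR and SERPINA1 had 0 counts under the MHCC-97H label and 1, HNF4A, had a mean of at least 1 CPM. The 8 summed to 4.22 to 5.59 CPM there, to 42.8 to 59.7 CPM under MDA-MB-231 and to 50.1 to 72.0 CPM under HCT-116. Groups are therefore named by their labels, and values for MDA-MB-231 and HCT-116 are given both apart and together. In both HCT-116 groups the library numbered 2 stood apart for SMG1 and UPF2, as described below. Whether the 3 libraries of each group were grown as separate cultures is not stated, so p-values measure the spread between these libraries only. In bulk RNA, fewer expressing cells and less RNA per cell cannot be told apart.

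The sequences upstream of 3 members are printed because SMG1 and UPF2 moved together across the libraries while UPF1 moved the other way. Each is the 250 bases before a RefSeq start of the gene, 5′ to 3′ on the gene's own strand, in GRCh38.p14: SMG1 at chr16:18926409-18926658 (minus strand), UPF2 at chr10:12043171-12043420 (minus strand) and UPF1 at chr19:18831709-18831958 (plus strand). UPF2 had 2 RefSeq entries, of which the one nearest the annotated start of the gene was taken, while SMG1 and UPF1 had 1 each. Capitals mark matches, on either strand, to the GC box GGGCGG, the CCAAT box CCAAT or the E box CACGTG.
SMG1: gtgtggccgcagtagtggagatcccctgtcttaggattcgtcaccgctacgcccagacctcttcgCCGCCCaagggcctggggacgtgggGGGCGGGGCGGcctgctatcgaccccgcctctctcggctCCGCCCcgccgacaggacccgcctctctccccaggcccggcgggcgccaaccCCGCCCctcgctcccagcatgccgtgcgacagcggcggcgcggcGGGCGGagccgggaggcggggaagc
UPF2: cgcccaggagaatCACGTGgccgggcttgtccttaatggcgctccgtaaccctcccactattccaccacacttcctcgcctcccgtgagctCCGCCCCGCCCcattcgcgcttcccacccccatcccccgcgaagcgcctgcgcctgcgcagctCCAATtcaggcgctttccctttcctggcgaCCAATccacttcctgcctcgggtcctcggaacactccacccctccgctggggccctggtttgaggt
UPF1: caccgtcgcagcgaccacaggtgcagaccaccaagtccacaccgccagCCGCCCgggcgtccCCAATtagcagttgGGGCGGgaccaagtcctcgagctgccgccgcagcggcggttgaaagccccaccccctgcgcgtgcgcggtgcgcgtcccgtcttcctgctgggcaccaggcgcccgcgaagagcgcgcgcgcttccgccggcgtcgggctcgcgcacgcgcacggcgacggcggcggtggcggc

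SMG1 held 6 GC boxes, of which 2, starting 160 and 155 bases before the start, overlap by 1 base, and no CCAAT box. UPF2 held an E box 237 bases before the start, 2 GC boxes that also overlap by 1 base, and CCAAT boxes 96 and 66 bases before the start. UPF1 held 2 GC boxes and 1 CCAAT box, 188 bases before the start. Over 35116 RefSeq promoters of the same length, 42.6% held the GC box, 32.0% the CCAAT box and 6.35% the E box. The ETS core CCGGAAG, in 8.52% of promoters, was found among the members in UPF3A, and the cAMP response element TGACGTCA, in 1.65%, in none of the 8 members with an entry. SMG1 and UPF2, the pair that moved together, had the GC box in common, as did UPF1. The table matched SMG1, SMG5, SMG6, SMG9, UPF1, UPF2, UPF3A and UPF3B, and not SMG8. A match describes the letters in the window and does not show that a factor binds there.

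Under the MHCC-97H label, the transcripts for the kinase SMG1 and the adaptor UPF2 were more than 2-fold higher in H3B-8800 than in DMSO libraries. UPF3B was higher by a smaller amount, and UPF1 and SMG5 were slightly lower. SMG6, SMG8, SMG9 and UPF3A did not pass the test. With edgeR's quasi-likelihood test and a Benjamini-Hochberg adjusted p under 0.05 over all 14234 genes, 3 of the 9 members were called higher, 2 lower and 4 not called. The background under this label was large, since 27.6% of all genes were called, 12.9% higher and 14.7% lower. In 4 members every treated library lay above every control library and in 2 every one lay below, against 47.6% of all genes without overlap in either direction. The median log2 fold change of the 9 members was -0.00198, and that of all genes was -0.06.

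**Figure D1:**
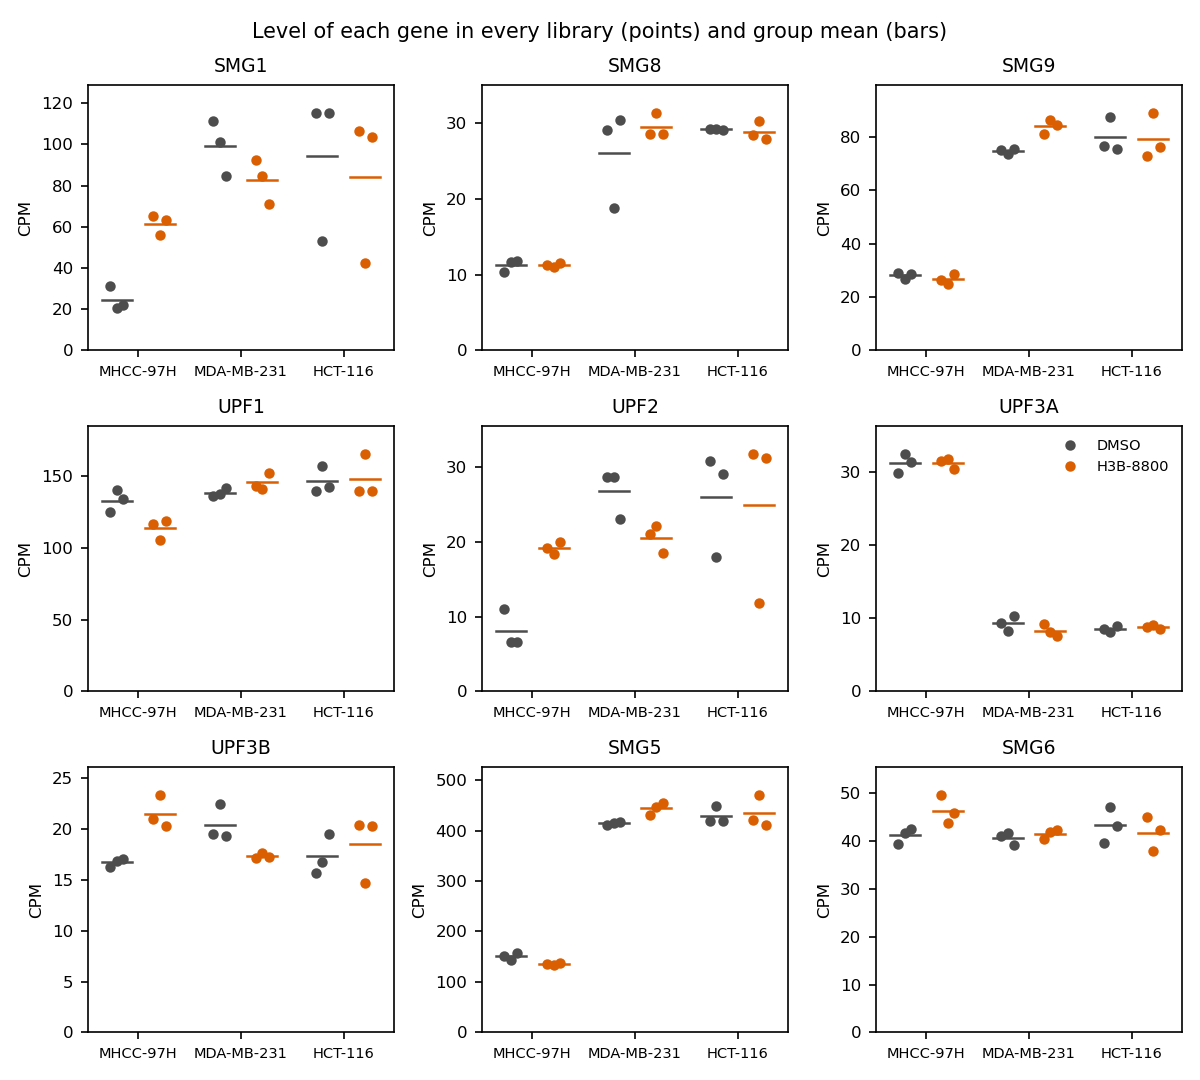
Level of each of the 9 genes in all 18 libraries, in CPM on linear axes that start at 0. Points are libraries, grouped by label and coloured by treatment, and bars are the means of 3 libraries. The SMG1 and UPF2 panels show the treated MHCC-97H libraries above their controls, and the low library numbered 2 in both HCT-116 groups.

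SMG1 (ENSG00000157106) is the phosphatidylinositol 3-kinase-related kinase that phosphorylates UPF1. It lies at chr16:18804853-18926454 on the minus strand of GRCh38 and has 25988 bases of annotated exon, longer than in 99.7% of the genes tested. Its GC content, taken here and below from the longest annotated transcript, was 43.2%. In the MHCC-97H DMSO libraries SMG1 stood at 31.3, 20.4 and 21.9 CPM, and in the H3B-8800 libraries at 65.3, 56.2 and 63.2 CPM. The groups did not overlap, and the control library numbered 1 was the highest of its group. The fold was 2.51, a log2 fold change of 1.33 (SE 0.32, adjusted p = 0.00953). Human chromosome 16 also carries pseudogene copies of SMG1, and the table holds 0 entries whose symbol starts with SMG1P. How reads shared with those copies were counted is not given in the sources used here, so the level of SMG1 is uncertain. An antisense gene, AC138811.1, overlaps SMG1, and without a stated strand setting its reads cannot be told apart from those of SMG1.

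SMG8 and SMG9 form the complex that binds SMG1 and holds back its kinase activity, and neither passed the test. SMG8 had 10.3, 11.7 and 11.8 CPM in DMSO and 11.2, 11.0 and 11.6 CPM in H3B-8800, a log2 fold change of -0.00198 with a 95% interval from -0.29 to 0.28. SMG9 had 29.2, 26.9 and 28.5 CPM in DMSO and 26.3, 24.9 and 28.7 CPM in H3B-8800, a log2 fold change of -0.08 with an interval from -0.25 to 0.09. The treated and control libraries overlapped for both genes. The upper bounds of both intervals lie below the lower bound of the SMG1 interval, 0.63, although these are separate intervals and the difference between genes was not tested. SMG8 shares its strand with an overlapping gene, AC099850.2, so its counts are uncertain too.

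UPF1 (ENSG00000005007), the helicase on which the pathway turns, was lower. It lies at chr19:18831938-18868236 on the plus strand and has 60.5% GC. Its levels in the MHCC-97H libraries were 125, 140 and 134 CPM in DMSO and 116, 106 and 119 CPM in H3B-8800. All treated libraries lay below all controls, by a margin that is small beside the spread within each group. The log2 fold change was -0.23 (SE 0.07, adjusted p = 0.0315), a fold of 0.855. The call was lost, with the direction kept, under 10 of 30 other settings, among them library totals in place of TMM scaling (-0.09, adjusted p = 0.35) and leaving out MHCC-97H DMSO 2 or 3 or H3B-8800 1 or 2 (adjusted p from 0.0565 to 0.14).

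UPF2 (ENSG00000151461), the adaptor that stimulates UPF1 and binds UPF3B, rose together with SMG1. It lies at chr10:11920022-12043170 on the minus strand, with 5906 bases of exon and 40.3% GC. In the DMSO libraries it stood at 11.0, 6.66 and 6.58 CPM and in the H3B-8800 libraries at 19.2, 18.3 and 20.0 CPM. The groups did not overlap, and the control library numbered 1, the highest control for SMG1, was also the highest for UPF2. The fold was 2.37, a log2 fold change of 1.24 (SE 0.31, adjusted p = 0.0111). Without the MHCC-97H control numbered 3 the value was 1.11 and the call was lost (adjusted p = 0.0533).

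Of the paralogs UPF3A and UPF3B, which bridge UPF2 and the exon junction complex, UPF3B was called and UPF3A was not. The 95% interval of UPF3B, 0.11 to 0.62, overlapped that of UPF3A, and the difference between the genes was not tested. UPF3B, the more active of the pair in decay, had 16.3, 16.9 and 17.1 CPM in DMSO and 21.0, 23.4 and 20.3 CPM in H3B-8800 libraries labelled MHCC-97H. Those groups did not overlap, and the log2 fold change was 0.36 (SE 0.12, adjusted p = 0.0331). The call was lost, with the direction kept, under 7 of 30 other settings, 5 of which leave out 1 MHCC-97H library: DMSO 1, 2 or 3 or H3B-8800 1 or 2 (adjusted p from 0.0613 to 0.12). UPF3A had 29.9, 32.5 and 31.4 CPM in DMSO and 31.5, 31.8 and 30.4 CPM in H3B-8800. Its groups overlapped, with a log2 fold change of -0.00242 and a 95% interval from -0.19 to 0.18. The ratio of UPF3A to UPF3B in CPM accordingly ran from 1.84 to 1.93 in the controls and from 1.36 to 1.50 in the treated libraries, a range given without a test.

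SMG5 and SMG6 act downstream of phosphorylated UPF1. SMG5, which helps to draw in deadenylation and decapping, had 150, 144 and 157 CPM in DMSO and 136, 134 and 138 CPM in H3B-8800. The treated libraries were all lower, and the log2 fold change was -0.15 (SE 0.05, adjusted p = 0.0437). This call was kept in 5 of the 18 fits that leave out 1 library. Over all settings it was lost under 20 of 30 other settings and the direction turned under 2 more, both of which remove a trend with GC content and length (0.05, adjusted p = 0.34, without the replicate number in the fit). SMG6, the endonuclease that cuts near the stop codon, had 39.3, 41.8 and 42.5 CPM in DMSO and 49.7, 43.7 and 45.8 CPM in H3B-8800. The treated libraries were all higher, but the log2 fold change of 0.17 (SE 0.08) was not called (adjusted p = 0.11). SMG6 passed the test under 3 of the 30 other settings, among them library totals (0.30, adjusted p = 0.0107). It overlaps SRR and HIC1 on the other strand.

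**Figure D2:**
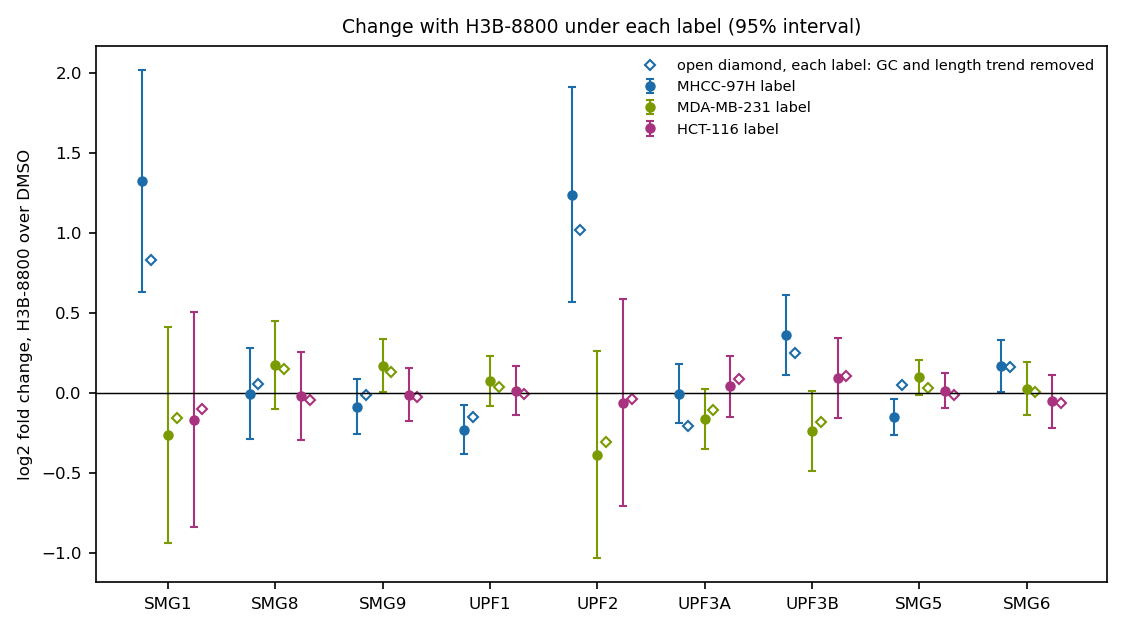
Log2 fold change of H3B-8800 over DMSO for each gene under each label. Filled points are edgeR estimates with 95% intervals and open diamonds the estimates after removing the trend with GC content and exonic length. Under the MHCC-97H label the intervals of SMG1, UPF2 and UPF3B lie above 0, those of UPF1 and SMG5 below 0, and the SMG5 diamond lies on the other side of 0.

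Gene length and GC content moved with the treatment under the MHCC-97H label, and these values stand beside the calls above. Of 555 genes tested with both long exonic sequence (the upper 10%, at least 10538 bases) and low GC content (the lowest 25%, at most 42.2%), 244 (44.0%) were called higher and 4 lower, with a median log2 fold change of 0.57. For 1361 short genes of high GC content the median was -0.27. SMG1, above the GC limit, and UPF2, under the length limit, both fall outside that long class, and 30 and 43 of its genes had a larger log2 fold change than SMG1 and UPF2, respectively. When a smooth trend with GC content and length was removed in the fit, 2 members were called under the MHCC-97H label, against 15.4% of all genes. These were SMG1, at 0.83 (SE 0.23, adjusted p = 0.0249), and UPF2, at 1.02 (SE 0.27, adjusted p = 0.0179). UPF3B then stood at 0.25 (adjusted p = 0.12) and UPF1 at -0.15 (adjusted p = 0.0539), neither called. The part of RNA quality or library preparation in these values was not tested.

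The effect was then examined under the other 2 labels. Of the 9 members, 0 were called under the MDA-MB-231 label, where 0.0351% of all genes were called by edgeR, and 1 member, SMG9, and 1024 genes had an unadjusted p under 0.05. DESeq2 called 49 genes there and none of the 9 members. SMG9 stood at 75.0, 73.5 and 75.5 CPM in DMSO and 81.3, 86.5 and 84.6 CPM in H3B-8800, a log2 fold change of 0.17 (adjusted p = 0.68). In that label SMG5 and SMG9 lay above their controls without overlap and UPF2 and UPF3B below, against 18.5% of all genes without overlap. UPF2 had 28.6, 28.7 and 23.0 CPM in DMSO and 21.0, 22.0 and 18.5 CPM in H3B-8800, with an interval of the log2 fold change from -1.03 to 0.26. The order of treated and control UPF2 libraries was thus opposite to that under the MHCC-97H label, but the change was not called (adjusted p = 0.83). The long, low-GC class was also lower in most of these treated libraries. Its median log2 deviation from the label's mean was 0.18, 0.11 and -0.00458 in DMSO and 0, -0.07 and -0.17 in H3B-8800.

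Under the HCT-116 label 0 of 9 members were called, where 0.0351% of all genes were called, 655 genes and 0 members had an unadjusted p under 0.05, and DESeq2 called 22 genes. The libraries of the 2 treatments overlapped for all 9 members, against 7.00% of all genes without overlap. SMG1 had 115, 53.0 and 115 CPM in DMSO and 107, 42.6 and 104 CPM in H3B-8800. UPF2 had 30.8, 17.9 and 29.1 CPM in DMSO and 31.7, 11.8 and 31.2 CPM in H3B-8800. In both groups the library numbered 2 was the low one for both genes. It was also low for the long, low-GC class, whose median log2 deviation from the label's mean was -0.21 in that control and -0.39 in that treated library, against 0.12 to 0.20 in the other 4. UPF1 was highest in the same libraries, at 157 CPM among the controls and 165 CPM among the treated.

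Averaged over these 2 labels, 0 of 9 members were called, against 0.0422% of all genes (1081 genes and 0 members at an unadjusted p under 0.05, and 61 genes by DESeq2). The mean log2 fold change of SMG1 was -0.21 with a 95% interval from -0.69 to 0.26, and that of UPF2 was -0.22 with an interval from -0.68 to 0.24. Those intervals do not reach the MHCC-97H estimates of 1.33 and 1.24.

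The difference of the effect, MHCC-97H minus the mean of the other 2 labels, was tested directly. Of 9 members 3 were called higher and 2 lower, the 5 named above for the effect in MHCC-97H libraries, against 25.4% of all genes, 12.2% higher and 13.2% lower. The difference on the log2 scale was 1.54 for SMG1 (SE 0.39, adjusted p = 0.0127) and 1.46 for UPF2 (SE 0.38, adjusted p = 0.0134). It was 0.43 for UPF3B, -0.27 for UPF1 and -0.21 for SMG5, with adjusted p of 0.0395, 0.0362 and 0.0274. These 3 calls were less firm than those of SMG1 and UPF2, which held under all 29 other settings: the call was lost under 12 of 29 for UPF3B and 14 for UPF1, and for SMG5 it was lost under 6 and the direction turned under 2. Of the 18 fits that leave out 1 library, 8 kept the call of UPF3B, 9 that of UPF1 and 15 that of SMG5, with adjusted p up to 0.11, 0.11 and 0.0919. For UPF3B the libraries whose removal ended the call were the same 5 of MHCC-97H, MDA-MB-231 DMSO 2, all 3 MDA-MB-231 H3B-8800 libraries and HCT-116 DMSO 3. For UPF1 they were MHCC-97H DMSO 2 and 3 and H3B-8800 1 and 2, MDA-MB-231 DMSO 1 and 2 and H3B-8800 3, and HCT-116 DMSO 1 and 3. For SMG5 they were MHCC-97H DMSO 3 and H3B-8800 1 and 2. After removal of the GC and length trend, SMG1 (0.96, adjusted p = 0.0357) and UPF2 (1.19, adjusted p = 0.0245) kept their calls and the other 3 did not. Without both HCT-116 libraries numbered 2, a setting chosen after the values were seen, the MHCC-97H effect was 1.33 for SMG1 (adjusted p = 6.02e-05) and 1.25 for UPF2 (adjusted p = 0.000121).

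**Figure D3:**
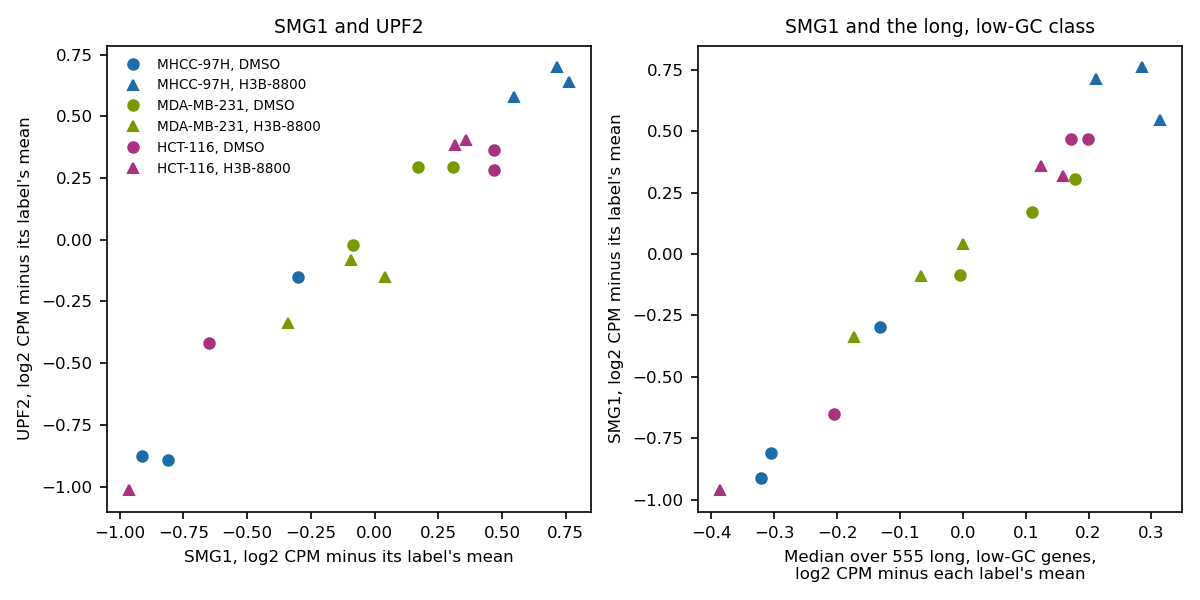
Left, UPF2 against SMG1, each as log2 CPM minus the mean of its label, in 18 libraries. Right, SMG1 against the median of 555 long, low-GC genes on the same scale. Colours are labels, circles DMSO and triangles H3B-8800. The lowest point for both genes is the treated HCT-116 library numbered 2, followed by the MHCC-97H controls numbered 2 and 3, and the treated MHCC-97H libraries are highest.

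SMG1 and UPF2 varied together within labels. Over 18 libraries, after subtracting each label's mean, their log2 CPM correlated at 0.98 (Pearson), and SMG1 and UPF1 at -0.91. UPF2 ranked 80 among all genes in its likeness to SMG1. The genes most like SMG1 were CBX5 (0.996), a heterochromatin protein, LRRFIP1 (0.994), CDK19 (0.993), a kinase of the Mediator complex, POU2F1 (0.993), a transcription factor, and SBNO1 (0.992). All 5 were called higher under the MHCC-97H label, with log2 fold changes from 0.80 for LRRFIP1 to 1.03 for POU2F1, and their exonic lengths ran from 7492 bases for CDK19 to 16078 for POU2F1. The genes most like UPF1 were EPN1 (0.964), an endocytic adaptor, SLC25A1 (0.964), the mitochondrial citrate carrier, NECTIN2 (0.959), ARAP1 (0.957) and CPSF1 (0.957), a subunit of the mRNA cleavage and polyadenylation complex. All 5 were called lower, between -0.30 for NECTIN2 and -0.21 for SLC25A1, and their GC content was 53.0% for EPN1 and 59.4% to 65.6% for the others. These correlations describe 18 libraries that share treatments, labels and the trend with length and GC content, and carry no test.

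Without the compound, MHCC-97H libraries held far less SMG1, UPF2, SMG5, SMG8 and SMG9 RNA than the other libraries, and more UPF3A. Of the 9 members, 5 were called lower and 1 higher in MHCC-97H DMSO libraries against the mean of the other 2 labels, against a background in which 84.6% of all genes were called, 43.9% lower and 40.7% higher. On the log2 scale SMG1 was lower by a difference of -1.98 (SE 0.30, adjusted p = 1.95e-05), UPF2 by -1.70 (SE 0.29, adjusted p = 5.36e-05) and SMG5 by -1.49 (SE 0.05, adjusted p = 7.49e-14). SMG9 differed by -1.45 and SMG8 by -1.29 (SE 0.07 and 0.12). All 3 members of the kinase complex, SMG1, SMG8 and SMG9, were thus lower in MHCC-97H controls. SMG6 (-0.03), UPF1 (-0.10) and UPF3B (-0.17) were not called. Removing the trend with GC content and length reduced the difference to -1.01 for SMG1 (adjusted p = 0.000359) and -1.20 for UPF2 (adjusted p = 0.000262). SMG8 then stood at -1.13, SMG9 at -1.46 and SMG5 at -1.82, all still called. The same removal put UPF1 among the lower genes (-0.37, adjusted p = 6.69e-07), and 8 members were called lower with library totals.

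UPF3A differed the other way. It stood at 29.9 to 32.5 CPM in the MHCC-97H controls and at 8.17 to 10.3 CPM in the 6 other controls. The fold was 3.51 (log2 difference 1.81, SE 0.07, adjusted p = 1.15e-12). After the trend with GC content and length was removed, the log2 difference was 2.31. UPF3B lay between 15.6 and 22.5 CPM in all 9 controls. The ratio of UPF3A to UPF3B in CPM was 1.36 to 1.93 (median 1.67) in the 6 MHCC-97H libraries of both treatments, and 0.368 to 0.615 (median 0.472) in the 12 others. The 2 ranges did not overlap. Between HCT-116 and MDA-MB-231 controls, 0 of 9 members were called, against 0.0351% of all genes (588 genes and 0 members at an unadjusted p under 0.05, and 23 genes by DESeq2). SMG8 was low in 1 of those controls, at 18.8 CPM in the MDA-MB-231 library numbered 2 against 29.1 and 30.4 CPM in its group.

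**Figure D4:**
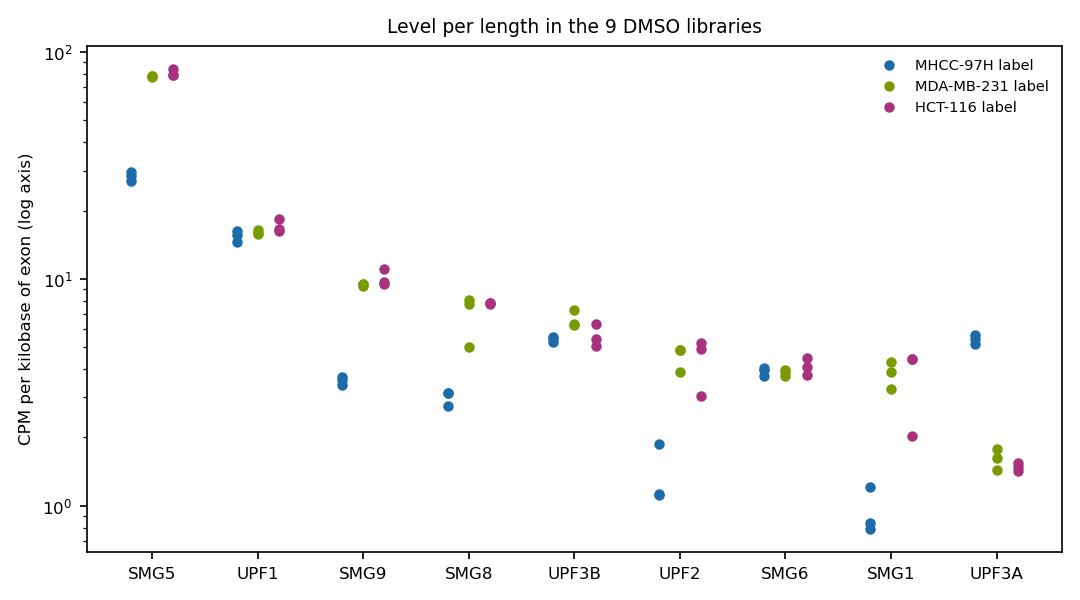
Level of each gene per kilobase of annotated exon in the 9 DMSO libraries, on a log axis, ordered by the mean over the 6 MDA-MB-231 and HCT-116 libraries. Points are libraries, coloured by label. SMG5 and UPF1 lead under all labels, SMG1 and UPF2 are lowest in MHCC-97H, and UPF3A is lowest elsewhere.

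Levels of different genes are compared per kilobase of exon. In the 6 controls labelled MDA-MB-231 or HCT-116 the order of the mean levels was SMG5 (79.5 ± 2.58 CPM per kilobase, SD, n = 6), UPF1 (16.6 ± 0.90), SMG9 (9.75 ± 0.65), SMG8 (7.37 ± 1.17), UPF3B (6.13 ± 0.78), UPF2 (4.46 ± 0.83), SMG6 (3.98 ± 0.28), SMG1 (3.72 ± 0.94) and UPF3A (1.55 ± 0.14). The ranges of SMG8 and UPF3B overlapped, as did those of UPF3B and UPF2, of UPF2 and SMG6, and of SMG6 and SMG1. In the 3 MHCC-97H controls the order was SMG5 (28.4 ± 1.27, SD, n = 3), UPF1 (15.5 ± 0.90), UPF3B (5.43 ± 0.13), UPF3A (5.42 ± 0.22), SMG6 (3.90 ± 0.16), SMG9 (3.56 ± 0.15), SMG8 (3.01 ± 0.22), UPF2 (1.37 ± 0.43) and SMG1 (0.94 ± 0.23). There UPF3B and UPF3A overlapped, and so did UPF2 and SMG1. The UPF1 libraries overlapped between the 2 sets of controls, at 14.5 to 16.3 and 15.8 to 18.3 CPM per kilobase, while those of SMG5, SMG1 and UPF2 did not. With the longest transcript as the length, SMG6 and SMG1 moved above UPF2 in the former order, and SMG1 above UPF2 and UPF3A above UPF3B in the latter.

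Other genes of the pathway were followed in lists drawn up with earlier results of these data known, and are given as counts beside all genes (12.9% higher, 14.7% lower). Of 16 other factors of nonsense-mediated decay, 6 were called higher, 3 lower and 7 not under the MHCC-97H label, with a median log2 fold change of 0.08, against -0.06 for all genes. GSPT1, the release factor eRF3a, went from 69.2 ± 7.06 to 107 ± 1.31 CPM (SD, n = 3), a log2 fold change of 0.62 (adjusted p = 0.000134). DCP1A, a decapping cofactor, went from 12.5 ± 3.36 to 23.2 ± 0.94 CPM (0.89, adjusted p = 0.00323). NBAS changed by 0.51 (adjusted p = 0.00313), and these 3 genes kept their calls after the trend with GC content and length was removed. After that removal the list stood at 6 higher and 0 lower, where 15.4% of all genes were called in either direction. The same share of all genes stands beside the counts after removal in the lists below.

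The kinases related to SMG1 and the factors that assemble them had 5 higher, 1 lower and 2 not called of 8, with a median of 0.39. TRRAP, a kinase-like scaffold without catalytic activity, changed by 0.54 (adjusted p = 0.000571), PRKDC, the DNA-dependent protein kinase, by 1.04 (adjusted p = 0.00219), ATR, the replication stress kinase, by 1.28 (adjusted p = 0.00755) and MTOR, the growth kinase, by 0.23 (adjusted p = 0.00887). Their exonic lengths were 12119 bases for MTOR to 19972 for TRRAP. With the trend removed 4 stayed higher, and MTOR was not called (0.15, adjusted p = 0.0847). SMG1 was thus 1 of several long kinase genes of its family that were higher in the treated MHCC-97H libraries.

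Of 10 genes of the exon junction complex and its partners, 1 was called higher and 0 lower, against 12.9% and 14.7% of all genes. Their median was -0.10, against -0.06 for all genes. The one called was PNN, a splicing-associated partner, at 28.5 ± 5.85 CPM in DMSO and 57.2 ± 2.11 CPM in H3B-8800 (log2 fold change 1.01, adjusted p = 0.00335). The core members EIF4A3 (-0.11) and MAGOH (-0.18), and PYM1 (-0.20), which takes the complex apart, were not called. Of 24 deadenylation and exosome genes, 9 were higher, 3 lower and 12 not called, with a median of 0.19. DIS3, the exosome nuclease, changed by 0.79, CNOT1, the scaffold of the CCR4-NOT deadenylase, by 0.99, CNOT6 by 0.91 and CNOT4 by 0.33, with adjusted p of 0.00194, 0.00385, 0.00516 and 0.0052. CNOT4 alone of these 4 was not called once the trend was removed (0.05, adjusted p = 0.79), when the list held 6 higher and 3 lower.

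Genes reported to have transcripts degraded by the pathway were also counted. Of 25 listed, 20 were in the table and tested, and 1 was called higher, 3 lower and 16 not, with a median of -0.12. Those absent from the table were the noncoding genes of the list, GAS5, SNHG1, SNHG12, SNHG15 and ZFAS1. The counts therefore do not cover that class of reported target. ATF4, a stress transcription factor, went from 465 ± 12.2 to 399 ± 2.49 CPM (log2 fold change -0.22, adjusted p = 0.00193), and GADD45B from 94.9 ± 14.2 to 68.0 ± 0.79 CPM (-0.48, adjusted p = 0.0147). HNRNPL changed by -0.16 (adjusted p = 0.0331) and SRSF2, a splicing factor whose own transcripts include decayed forms, by 0.32 (adjusted p = 0.0276). With the trend removed, ATF4 (0.05, adjusted p = 0.65) and GADD45B (-0.18, adjusted p = 0.44) were not called, and the list stood at 1 higher and 3 lower. The one higher was SRSF2 (0.33, adjusted p = 0.0375), and the lower were HNRNPL (-0.15, adjusted p = 0.0271) and 2 genes named after their values were seen, TRA2B (-0.37, adjusted p = 0.00249) and SRSF7 (-0.29, adjusted p = 0.00471). Gene-level counts do not separate decayed from stable transcripts of a gene. Averaged over MDA-MB-231 and HCT-116, 0 genes were called in each of the 5 lists.

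**Figure D5:**
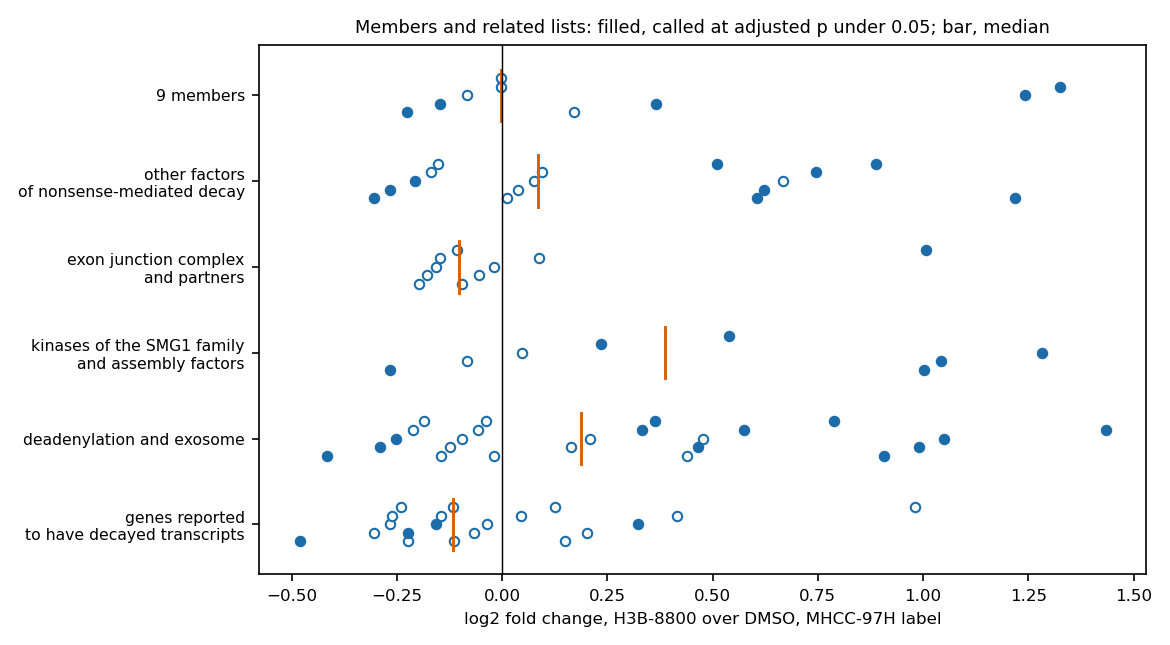
Log2 fold change of H3B-8800 over DMSO under the MHCC-97H label for the 9 members and the 5 related lists. Each point is a gene, filled where called at an adjusted p under 0.05, and bars are medians. The list medians run from -0.12 for genes with decayed transcripts to 0.39 for the kinases related to SMG1.

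The annotated structure of the members varied. In GENCODE 29, SMG1, SMG8 and SMG9 each have 1 transcript annotated as a target of nonsense-mediated decay, so 3 of 9 members (33.3%) do, against 41.7% of the genes tested. UPF2 has none, and 0 transcripts annotated as retaining an intron, while SMG1 has 5 of these among 17 transcripts. SMG1 has up to 62 introns in a transcript and UPF2 up to 21, the same number as SMG5. GC content of the longest annotated transcript was 40.3% in UPF2, 41.8% in UPF3A and UPF3B, 43.2% in SMG1, and 47.8% to 60.5% in the other 5 members. The 3 members called higher under the MHCC-97H label were thus among the 4 of lowest GC content, with UPF3A, which was not called.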

How the data were processed

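RNA-seq was done on 18 libraries, 3 in each of 6 groups of cell line label and treatment, and groups were read from the sample labels. The authors deposited 1 table of raw read counts per gene, whole numbers without normalization. Reads were trimmed with fastp and aligned with HISAT2 to GRCh38, per the submitters' processing notes. For versions, the counting tool, its annotation and its strand setting, nothing was given in the sources used here. Exonic length, GC content of the longest transcript and overlaps came from GENCODE release 29 (20224 of 20263 genes matched), and promoter sequences from RefSeq.

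Counts were tested with edgeR 4.0.16 (R 4.3.3, limma 3.58.1): filterByExpr, TMM scaling, 1 robust quasi-likelihood fit of all 18 libraries with a mean per group, and Benjamini-Hochberg adjustment over 14234 genes at 0.05. CPM values use TMM library sizes, except the cell type marker sums, which use library totals, and log2 CPM a prior count of 2. The GC and length trend was removed per library with splines of 5 degrees of freedom. Depth was 28232315 to 41488278 counts, and every member was counted in all libraries. The code was tested on simulated data. Alternatives were other scalings, filters, DESeq2 1.42.0, limma voom, the replicate number as a block, a separate fit, and each library left out. Named genes were all 9 members, the 4 of each list with the lowest adjusted p under the MHCC-97H label, and the 5 most like SMG1 and UPF1; 1 gene that this rule names is not reported here. The members and lists were chosen with earlier results of these data known.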

Additional observations from a re-analysis of the deposited data

Results flagged for a closer look

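The effect of H3B-8800 differed between the MHCC-97H label and the mean of the other 2 labels for 5 of the 9 genes, by edgeR's test of the difference itself. On the log2 scale the difference was 1.54 for SMG1, 1.46 for UPF2 and 0.43 for UPF3B, and it was -0.27 for UPF1 and -0.21 for SMG5. All 3 MHCC-97H treated libraries lay on the stated side of all 3 controls for each of the 5, against 47.6% of all genes without overlap in either direction. The 5 were called from these same libraries, so this is a description only. Of all genes tested, 25.4% passed the same test. After the trend with GC content and length was removed, the difference was 0.96 for SMG1 (adjusted p = 0.0357) and 1.19 for UPF2 (adjusted p = 0.0245), and the other 3 were not called.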

How the results depend on the processing

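Calls for SMG1 held under all 30 alternatives to the fit under the MHCC-97H label, and those for UPF2 under 29. With single libraries left out, SMG1 ranged from 1.21 to 1.54 and UPF2 from 1.11 to 1.53. Members called higher there ranged from 1 to 3 with single libraries left out (1 without the MHCC-97H control numbered 3) and members called lower from 0 to 2, against 3 and 2. Members called lower were 0 with relative log expression or upper-quartile factors, library totals, the GC and length trend removed (with or without the replicate block) or a separate fit, and 1 with no filter, DESeq2 or limma voom. For the difference between labels, members called lower were 0 with the same 3 scalings and both trend removals, and 0 to 2 with libraries left out. Members lower in MHCC-97H DMSO libraries were 8 with library totals, against 5. With library totals the median log2 fold change over all genes was 0.04, against -0.06. SMG5 changed direction with the trend removed, to 0.0507 without and 0.0515 with the replicate block, and for the difference to 0.0378 and 0.0386; the cause was not tested. All genes called under the MHCC-97H label were 3922, against 2193 with the trend removed, 2538 with the block as well, and 2439, 2141 and 2336 without control 2, control 3 or treated library 2. For the difference they were 3615, against 1890, 2278 and, without control 3 or treated library 2, 2266 and 2387. Under MDA-MB-231 (5 called) other settings gave 4 to 49, under HCT-116 (5) 1 to 22, for their mean (6) 6 to 61, and between their controls (5) 4 to 23.

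Same-numbered libraries were not treated as paired in the main fit. Over 14234 genes their deviations correlated at -0.05 to 0.19. Over 9233 genes of at least 10 CPM the values were 0.18, 0.45 and 0.13 under HCT-116. There library 1 matched another number better (0.27), while libraries 2 and 3 matched other numbers at -0.21 and 0.05 at most. Under MDA-MB-231 every library matched its own number best over 14234 genes, but library 3 did not over 9233. Under MHCC-97H only library 2 did so in either set. The replicate block changed no member's call (SMG1 1.35, UPF2 1.28, SMG5 -0.15) and gave 4665 genes called under MHCC-97H, and 24 against 6 for the mean of the other labels.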
